A study of Mus musculus with 8 samples.

Results

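This account compares 2 of the 8 arrays used here: ES cells that expressed nucleostemin (NS) and were labelled as exposed to the 2i condition, against the same kind of cells with an empty vector in conventional medium. Both arrays were chosen by their labels as Dox-untreated, and 18194 genes were compared, each through the probe set that was brightest on average across the series. The study asked how ESCs survive the loss of NS, a nucleolar GTP-binding protein encoded by Gnl3. The other arrays hold Dox-untreated cells with forced Nanog or Esrrb, and the Dox-treated counterpart (6 days) of all 4 kinds of cells.

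All cells were male NS tet-off ESCs of 129sv background, in which the endogenous NS gene is disrupted on both alleles and NS is made from a cDNA in the ROSA26 locus under tetracycline-off control. Without doxycycline (Dox) the cDNA is transcribed, so both arrays show cells that made NS from the transgene and not from its own locus. Both also carried the empty vector. The 2i condition, which the paper also calls 2i plus LIF (leukemia inhibitory factor), was medium with 2 kinase inhibitors, against MEK and against GSK3b. The conventional condition was feeder-free medium with LIF and serum. Whether the 2i medium also held serum is not given in the sources used here, so effects of the inhibitors and of any other change of medium cannot be told apart. How long the cells had been in 2i before harvest is not given in the sources used here. Each condition has 1 array of 1 engineered line, so every value below is a single measurement, no difference has a replicate check, and no test was made.

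As background, MEK activates Erk, which drives mouse ESCs toward differentiation and switches on its own feedback inhibitors, the Dusp phosphatases and the Sprouty and Spred proteins. GSK3 marks beta-catenin for destruction, so its inhibition is known to raise Wnt target genes such as Axin2. Cells in 2i are known to lose feedback gene transcripts, to keep naive pluripotency factors high and evenly expressed, and to lower Dnmt3 methyltransferases and primed epiblast genes.

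The identity of the cells was checked first. Gnl3 had a log2 signal of 13.54 on the array labelled 2i and 13.47 on the empty vector array, against 8.01 and 7.79 on the corresponding Dox-treated arrays. NS was thus transcribed in both Dox-untreated samples. The 10 ES cell markers had a median of 12.97 on the array labelled 2i and 12.86 on the vector array, and their differences ran between -0.12 (Dppa4) and 0.13 (Klf4). The summed signal of the 7 trophoblast markers was 10.17 on the array labelled 2i and 9.51 on the vector array on the log2 scale, with Krt18 the one marker over 2-fold apart. On the array labelled 2i the sums were 8.09 for primitive endoderm, 6.21 for 3 of 4 mesoderm markers, 7.61 for neurectoderm and 7.92 for fibroblasts, and on the vector array they were 8.35, 6.51, 7.78 and 7.68 for the same lists. The part of these other markers in the results below was not tested.

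The feedback genes of MEK and Erk differed little, unlike what is known of cells in 2i. Dusp6, the cytoplasmic phosphatase that removes phosphate from Erk, had a signal of 10.95 on the array labelled 2i, 10.62 with forced Nanog, 10.98 with forced Esrrb and 10.97 on the vector array. Its difference, 2i minus vector, was -0.03 on the log2 scale. With Dox it was 7.63 in 2i and 11.40 with the vector, a difference of -3.77. Spry4, an inhibitor of receptor tyrosine kinase signalling, gave 9.92 on the array labelled 2i and 10.17 on the vector array, against 4.07 and 9.17 on the Dox-treated arrays. Differences of -0.25 and -5.09 follow. The same contrast held for Dusp4, a nuclear Erk phosphatase, at -0.36 on Dox-untreated and -3.64 on Dox-treated arrays, and for Etv4, an Ets factor downstream of Erk, at 0.25 and -2.95. Because these genes were so little apart, the Dox-untreated sample is called the array labelled 2i throughout, and each direction given for it rests on that label.

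Over the whole list of MEK and Erk feedback genes (26 of 27 measured), 2 were over 2-fold higher on the array labelled 2i and 0 over 2-fold lower, where 0.517% and 0.242% of all genes were. At 1.5-fold, 3 were higher and 2 lower, beside 2.52% and 1.83% of all genes. The list had a median of -0.10, against 0.005 for all genes. For 10 of the 26 (38.5%, beside 26.8% of all genes) the array labelled 2i was the lowest of the 4 Dox-untreated arrays. It was the highest for 2 (7.7%, beside 23.4%). Against the mean of the other 3 Dox-untreated arrays the median was -0.02. In that comparison 4 were over 1.5-fold lower and 0 higher, beside 1.64% and 1.68% of all genes. On the Dox-treated arrays the same list had a median of -0.93 against 0.05 for all genes, and 12 members were over 2-fold lower (beside 2.58% of all genes). The pair of members over 2-fold higher were immediate early genes, which serum and growth factors induce within minutes. Egr1 was at 10.73 on the array labelled 2i, 11.20 with Nanog, 11.55 with Esrrb and 9.51 on the vector array, and Fos was at 9.52, 10.44, 11.27 and 8.35 in that order. For both it was the vector array that lay below the other 3, and against the mean of those 3 other Dox-untreated arrays the array labelled 2i differed by -0.03 (Egr1) and -0.50 (Fos). Phlda1, a growth factor-induced gene, was the other member over 1.5-fold higher, at 8.03, 7.22, 8.86 and 7.35 in the same order. The 2 members over 1.5-fold lower were Fosl1, an AP-1 subunit, with a difference of -0.79, and Dusp2, a nuclear phosphatase, at 4.86 and 5.54 on the array labelled 2i and the vector array. Both genes were dim, with signals below 6.65, the median over all genes of the mean of the 2 arrays, and the second probe set of Fosl1 gave 0.20.

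**Figure D1:**
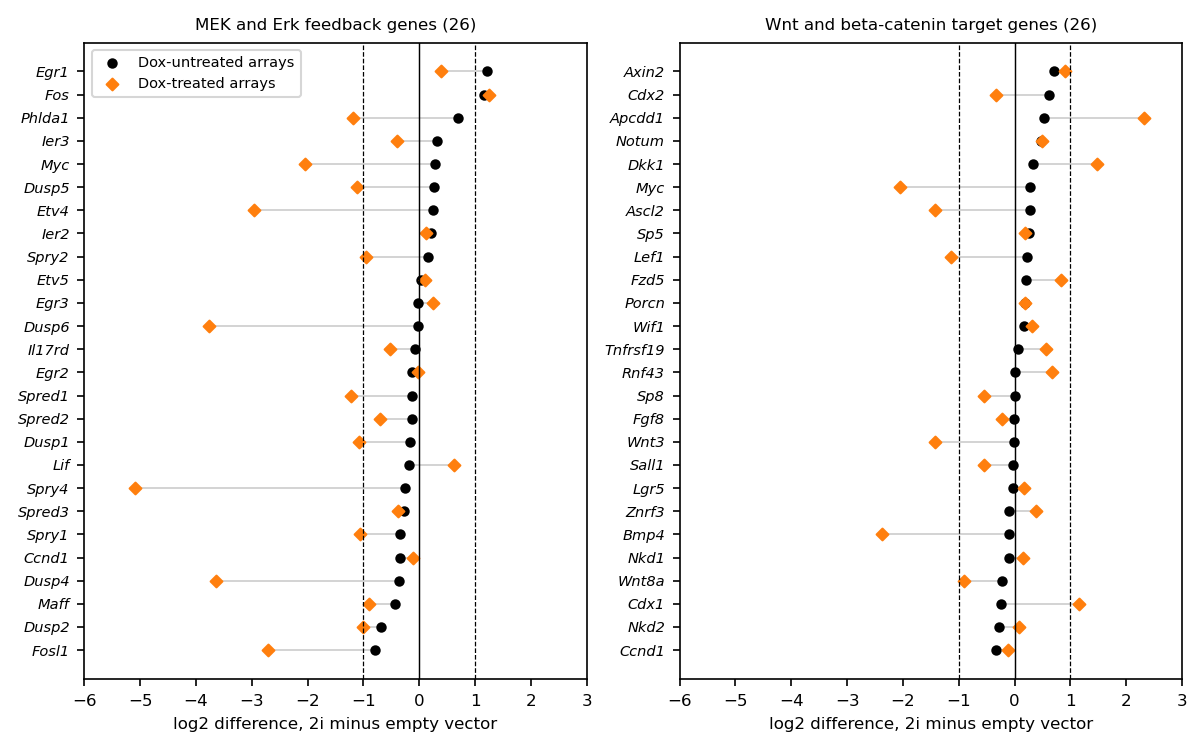
Differences of the 26 MEK and Erk feedback genes (left) and the 26 Wnt and beta-catenin target genes (right), as log2 signal in 2i minus empty vector, 1 array a side. Black circles are the Dox-untreated arrays and orange diamonds the Dox-treated arrays, a gray line joins both values of a gene, and dashed lines mark 2-fold. In the left panel the black circles lie near 0, with Egr1 and Fos above 1, and 12 of the diamonds lie below -1.

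Wnt and beta-catenin target genes were little apart as well. Their median was 0.04 over 26 of 28 genes, and 0 passed 2-fold in either direction. Of the 26, 15 were higher and 11 lower (57.7% and 42.3%, beside 50.9% and 49.0% of all genes). The highest was Axin2, the scaffold protein through which the pathway limits itself, with 7.65 on the array labelled 2i, 7.30 with Nanog, 7.29 with Esrrb and 6.94 on the vector array. The array labelled 2i was the highest and the vector array the lowest of the 4, and the difference was 0.71 without Dox, beside 0.90 in Dox-treated cells. The second probe set of Axin2 gave -0.12, so the difference rests on 1 of 2 probe sets. Cdx2, a caudal homeobox gene, was the other member over 1.5-fold, at 4.90 and 4.28, where both signals are dim. Apcdd1, a membrane inhibitor of Wnt reception, was at 7.42 on the array labelled 2i and 6.90 on the vector array, and Notum, a secreted enzyme that inactivates Wnt proteins, at 7.80 and 7.32. With Dox, Apcdd1 differed by 2.31 and Notum by 0.50. For 10 of the 26 genes the array labelled 2i was the highest of the 4 Dox-untreated arrays (38.5%), which was so for 23.4% of all genes.

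The genes that 2i is known to hold high also differed little. The 24 naive pluripotency genes had a median difference of 0.11, with 16 above 0 (66.7%, beside 50.9% of all genes) and 0 past 1.5-fold. The median was 0.83 on the Dox-treated arrays, where 8 were over 2-fold higher (beside 3.14% of all genes). Nanog was at 12.91 on the array labelled 2i and 12.81 on the vector array, Esrrb at 11.27 and 11.31 and Klf4 at 13.03 and 12.90. Prdm14, which represses primed genes and DNA methyltransferases in ESCs, was at 10.25 and 9.83, and its difference of 0.43 was 2.40 on the Dox-treated arrays. Klf2, another naive state factor, differed by -0.04 here and by 1.56 with Dox. These members were named after their values were seen. Core pluripotency genes (13 of 14 measured) had a median of 0.08. The DNA methylation enzyme genes (11 of 12) had a median of 0.17, with Dnmt3l, the cofactor of de novo methylation, at 12.21 on the array labelled 2i and 11.90 on the vector array, Dnmt3a at 8.28 and 8.19 and Dnmt3b at 11.16 and 11.09. None of the 11 passed 1.5-fold. With Dox the differences were -0.87 for Dnmt3l, -0.42 for Dnmt3a and -0.70 for Dnmt3b.

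Primed epiblast genes (17 of 18) had a median of 0.02. Fst, a secreted antagonist of activin, was the only member over 2-fold, at 8.61 on the array labelled 2i and 7.38 on the vector array, and both of its probe sets were higher (1.23 and 1.15). Lefty2, a Nodal antagonist, was at 8.93 and 8.07. Sox4 was at 9.91 and 10.53, and Fgf5, a marker of the postimplantation epiblast, at 3.83 and 4.34. Otx2, Nodal and Dnmt3b each differed by less than 0.1. Against the mean of the other 3 Dox-untreated arrays the list had a median of 0.28, with 12 of 17 above 0 (70.6%, beside 47.7% of all genes). Nanog minus vector and Esrrb minus vector, which share the vector array, had medians of -0.25 and -0.34.

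As a whole, the arrays were close. The array labelled 2i and the vector array had the highest Pearson correlation of any pair of the 8 arrays over all probe sets (0.99495), followed by the vector and Nanog Dox-untreated arrays (0.99471). The difference had an SD of 0.278 over genes, with 94 genes past 2-fold in the higher and 44 in the lower direction. Nanog minus vector, which shares the vector array, had an SD of 0.268 with 79 and 46 genes over 2-fold, and Esrrb minus vector 0.356 with 230 and 102. On the Dox-treated arrays, 2i minus vector had an SD of 0.513, with 571 genes over 2-fold higher and 469 lower. Most of the genes over 2-fold on the Dox-untreated arrays were of low to middle signal. With genes split into 4 equal bins of mean signal, the bin next to the dimmest held 53 higher and 26 lower genes, and the brightest held 8 and 4.

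**Figure D2:**
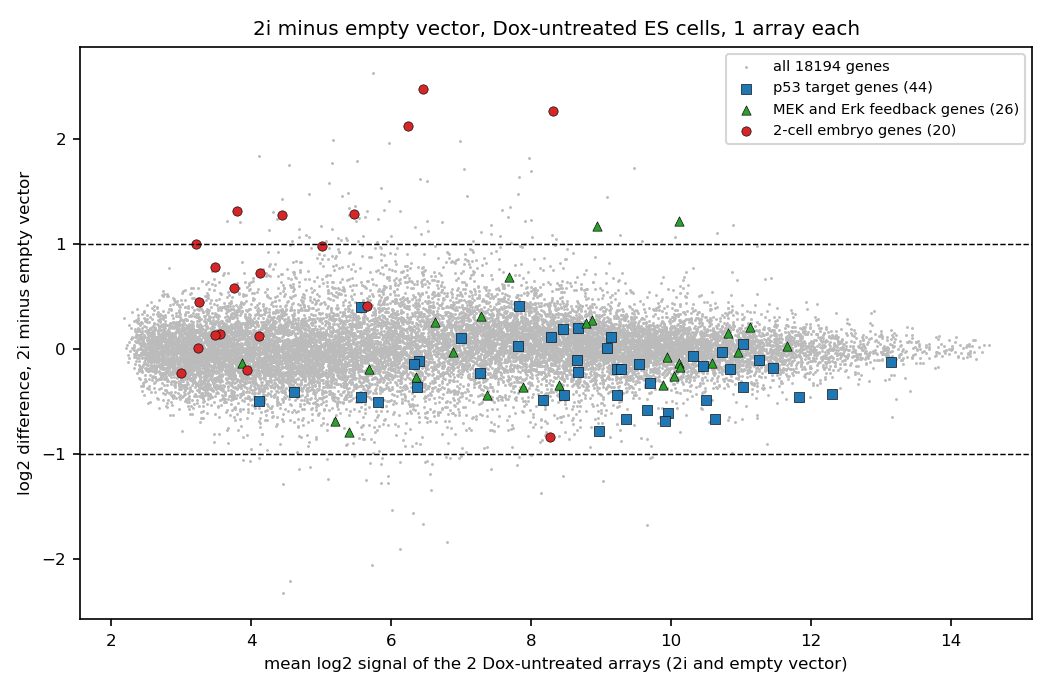
Log2 difference, 2i minus empty vector on the Dox-untreated arrays (vertical), against the mean log2 signal of both arrays (horizontal), 1 gray point for each of 18194 genes. Red circles are the 20 2-cell embryo genes, blue squares the 44 p53 target genes and green triangles the 26 MEK and Erk feedback genes, and dashed lines mark 2-fold. Of the red circles 6 lie above the upper line and none below the lower one, while no blue square crosses either line.

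Genes of the 2-cell embryo formed the list that stood farthest from 0. These genes are transcribed when the mouse embryonic genome is first activated, and in ESC cultures a small, changing share of cells is known to switch them on for a time. Of 52 listed genes, 20 could be measured, since probe sets with several gene symbols, among them those of the Zscan4 cluster, were not named. Their median was 0.66, and 17 of 20 were above 0 (85%, beside 50.9% of all genes). Over 2-fold, 6 were higher and 0 lower, beside 0.517% and 0.242% of all genes. At 1.5-fold, 10 were higher and 1 lower, beside 2.52% and 1.83% of all genes. The median was 0.41 without probe sets that can bind several transcripts (names ending in _x_at or _s_at). It was 0.40 against the mean of the other 3 Dox-untreated arrays, a comparison chosen after seeing the data. That comparison keeps the array labelled 2i, and the vector array is 1 of the 3. For 15 of the 20 (75%, beside 23.4% of all genes) the array labelled 2i was the highest of the 4 Dox-untreated arrays, and for 9 (45%, beside 27.7%) the vector array was the lowest. Esrrb minus vector, which shares the vector array, had a median of 0.31 over the same 20 genes, with 17 above 0 (85%, beside 54.0% of all genes). It had 2 over 2-fold higher and 0 lower, beside 1.26% and 0.561% of all genes. Nanog minus vector had a median of 0.04. In RNA of a whole culture, more cells of a kind and more RNA per cell cannot be told apart.

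The largest differences belonged to 3 genes. Gm20767 had a signal of 7.70 on the array labelled 2i, 4.97 with Nanog, 6.00 with Esrrb and 5.22 on the vector array. AF067061 was at 9.45, 6.78, 7.80 and 7.18 on the same arrays. Usp17la, a ubiquitin-specific protease of a gene family induced at the 2-cell stage, was at 7.31, 5.20, 6.19 and 5.18. In each case the array labelled 2i stood above the other 3, and AF067061 was 4.82-fold over the vector array. The vector signals of Gm20767 and Usp17la lay below the array medians (5.31 to 5.36), so no fold is given for them. All 3 genes have 1 probe set, and near-identical copies of these genes exist, so which copy gave the signal is uncertain. In Dox-treated cells all 3 were higher still and the 2 conditions were alike, with AF067061 at 11.57 in 2i and 11.55 with the vector, and Gm20767 at 9.75 and 9.71. The whole list of 20 still had a median of 0.29 there, 2i minus vector, beside 0.05 for all genes. Of the 20, 15 were above 0 (75%, beside 57.2% of all genes). Over 2-fold, 4 were higher and 0 lower, beside 3.14% and 2.58% of all genes.

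The other members over 2-fold were dimmer. Zfp352, a zinc finger gene of the early embryo, was at 6.11 on the array labelled 2i, 5.45 with Nanog, 5.26 with Esrrb and 4.82 on the vector array, and its probe sets gave 1.28 and 1.29. Arg2, the mitochondrial arginase, was at 5.08, 3.60, 4.75 and 3.81, and its probe sets gave 1.28 and 1.25. Each gene thus differed alike in its 2 probe sets. Pramel6, of the PRAME family, was at 4.45 on the array labelled 2i and 3.13 on the vector array, but its second probe set gave 0.17. Tcstv3, a 2-cell transcript, and Obox6, a homeobox gene of oocytes and early embryos, lay just under 2-fold, with 3.71 and 2.72 for Tcstv3 and 5.51 and 4.52 for Obox6. Ubtfl1, an HMG box gene of the early embryo, was at 3.88 and 3.09, and Pramel7, another PRAME family gene, differed by 0.73. Duxf3, which encodes the Dux factor that activates the 2-cell programme, was at 3.25 and 3.24, dim on both arrays. Of the 20 genes 3 lay below 0. The farthest was Ddit4l, a stress-induced inhibitor of mTOR signalling, with 7.85 on the array labelled 2i, 8.79 with Nanog, 8.89 with Esrrb and 8.68 on the vector array. The array labelled 2i was the lowest of the 4, and the 3 probe sets of Ddit4l ran between -0.83 and -0.49.

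**Figure D3:**
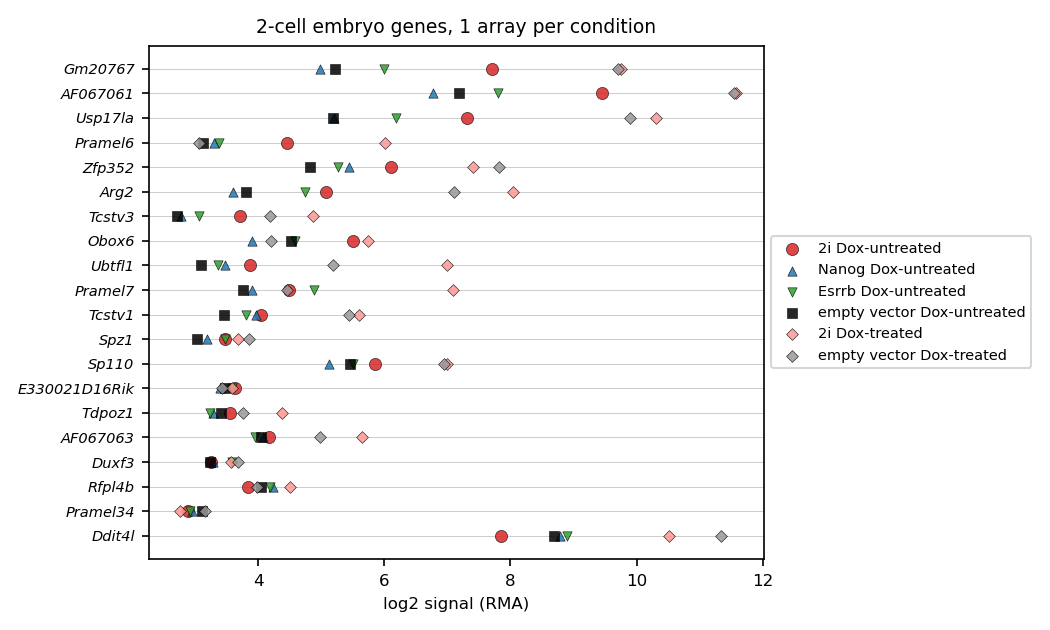
Log2 signal (horizontal) of the 20 measured 2-cell embryo genes (rows, ordered by the difference 2i minus empty vector on Dox-untreated arrays), 1 point for each of 6 arrays. Red circles are the array labelled 2i, blue and green triangles the arrays with Nanog and Esrrb, black squares the vector array and diamonds the Dox-treated arrays. The red circle lies right of the black square in 17 rows, and for Gm20767, AF067061 and Usp17la it lies between the Dox-untreated and the Dox-treated points.

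The promoters of 2 of these genes are shown as a description, and what drives their signals was not tested. Of the 20 measured genes, 13 have a promoter among the RefSeq sequences used here (build GRCm38.p6, 14 promoters, each 250 bases before and 50 after the start). The 250 bases before the start are printed, 5′ to 3′ on the plus strand, with every TAATCC on either strand (GGATTA on the strand shown) in capitals. TAATCC is the core bound by bicoid-class homeodomain proteins, a class that holds the Otx and Crx factors and the Obox proteins of the oocyte and early embryo. The motif was chosen after the values and sequences were seen.

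AF067061 (chr13:120262845-120263094): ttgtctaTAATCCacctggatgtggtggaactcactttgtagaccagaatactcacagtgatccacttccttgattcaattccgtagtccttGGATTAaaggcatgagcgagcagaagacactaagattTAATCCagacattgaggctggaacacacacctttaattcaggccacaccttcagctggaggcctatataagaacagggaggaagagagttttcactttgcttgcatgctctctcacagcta
Zfp352 (chr4:90218570-90218819): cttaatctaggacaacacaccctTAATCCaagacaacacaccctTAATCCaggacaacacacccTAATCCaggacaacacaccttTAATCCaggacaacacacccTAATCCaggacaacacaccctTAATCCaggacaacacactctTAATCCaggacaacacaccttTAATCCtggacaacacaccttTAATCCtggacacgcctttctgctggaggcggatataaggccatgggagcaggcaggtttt

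The window of AF067061 held 3 matches and that of Zfp352 held 9, spaced 20 or 21 bases apart in a short sequence repeated head to tail. Among all 32851 promoters of the same length, 7.06% held at least 1 match and 8 promoters (0.0244%) held 3 or more. Of the 14 promoters of measured 2-cell genes, 5 held a match, among them both promoters of Sp110 and that of Tdpoz1. Since the motif was chosen after these sequences were seen, these counts and shares are a description. Usp17la held none. A match describes letters in a window and is not a site shown to be bound.

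Target genes of p53 were, as a list, slightly lower on the array labelled 2i. The tumour suppressor p53 is held low by Mdm2 and, when released by DNA damage or nucleolar stress, activates genes of cell cycle arrest, repair and apoptosis. Of 45 listed genes, 44 were measured, with a median of -0.19 beside 0.005 for all genes. Of the 44, 34 lay below 0 (77.3%, beside 49% of all genes), 0 passed 2-fold, and 5 were over 1.5-fold lower and 0 higher, beside 1.83% and 2.52% of all genes. For 25 of the 44 (56.8%) the array labelled 2i was the lowest of the 4 Dox-untreated arrays, which was so for 26.8% of all genes. Against the mean of the other 3 Dox-untreated arrays the list had a median of -0.24, beside -0.01 for all genes. That comparison keeps the array labelled 2i, and the vector array is 1 of the 3. In that comparison 38 of 44 were below 0 (86.4%, beside 52.3% of all genes). The medians of Nanog minus vector and Esrrb minus vector, which share the vector array, were -0.01 and -0.004.

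The 5 members over 1.5-fold lower were all of middle to high signal. Plk2, a polo-like kinase, was at 8.57 on the array labelled 2i, 9.69 with Nanog, 9.83 with Esrrb and 9.36 on the vector array. Perp, a membrane protein of apoptosis and cell adhesion, was at 9.57, 10.13, 9.78 and 10.25. Zmat3, an RNA-binding zinc finger protein, was at 10.29, 10.56, 10.47 and 10.96. The array labelled 2i was the lowest of the 4 for all 3 genes, and for Perp and Zmat3 the vector array was the highest. Btg2, an inhibitor of proliferation, was at 9.03, 9.60, 9.90 and 9.69, and Cdc42bpg, a kinase that binds Cdc42, was at 9.66, 10.09, 9.67 and 10.27. For Cdc42bpg the array labelled 2i and the Esrrb array were almost level, and the vector array was the highest of the 4. Both probe sets of Btg2 were lower (-0.66 and -0.51), while the second probe set of Plk2 gave 0.09.

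The best known targets lay closer together. Cdkn1a, which encodes the cell cycle inhibitor p21, was at 9.47 on the array labelled 2i and 9.62 on the vector array. Mdm2, the ubiquitin ligase that degrades p53, was at 10.38 and 10.54. Trp53inp1, a stress-induced nuclear protein, was at 12.09 and 12.51, Ccng1, which encodes cyclin G1, at 11.61 and 12.06, and Bbc3, which encodes the apoptosis inducer Puma, at 7.92 and 8.40. In all 5 the array labelled 2i was the lowest of the 4 Dox-untreated arrays. The members farthest above 0 were Rrm2b, the p53-induced subunit of ribonucleotide reductase, at 8.04 and 7.63, and the death receptor gene Tnfrsf10b at 5.77 and 5.36. With Dox, 2i minus vector had a median of -0.33 over the same 44 genes, with 38 below 0 and 5 over 2-fold lower, beside a median of 0.05 over all genes, of which 42.7% were below 0 and 2.58% over 2-fold lower. There, Plk2 was at 12.03 in 2i and 12.38 with the vector, and Perp at 12.15 and 12.92.

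**Figure D4:**
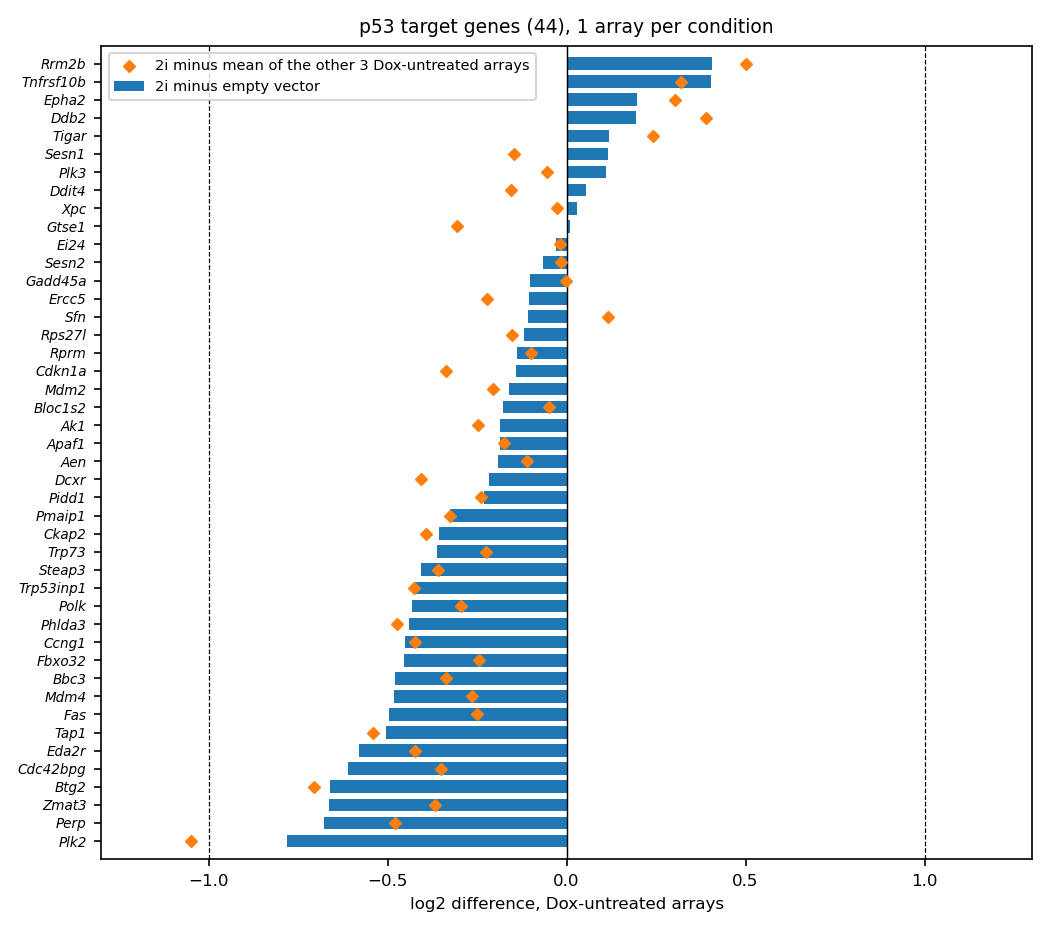
Differences of the 44 measured p53 target genes on the Dox-untreated arrays, in log2 units (horizontal), ordered by 2i minus empty vector. Bars give 2i minus empty vector, 1 array a side, orange diamonds give 2i minus the mean of the other 3 Dox-untreated arrays, and dashed lines mark 2-fold. Of the bars 34 point left, and the lowest is Plk2 at -0.78.

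Among genes above the median signal, the 15 with the highest difference were led by AF067061 and Rec114, a protein of meiotic recombination. Rec114 was at 7.98 on the array labelled 2i, 6.29 with Nanog, 5.92 with Esrrb and 5.99 on the vector array, and both of its probe sets were higher (1.98 and 1.75). S100a6, a small calcium-binding protein, was at 10.33, 8.37, 8.48 and 8.61. Epha4, an ephrin receptor, was at 8.65, 7.51, 7.85 and 7.01, and its 5 probe sets ran between 1.32 and 1.76. For these 3 genes the array labelled 2i stood above the other 3. Anxa1 and Anxa3 encode annexins, which bind membranes in the presence of calcium, with Anxa1 at 8.88 on the array labelled 2i and 7.06 on the vector array, and Anxa3 at 8.37 and 7.02. Anxa1 was at 8.46 on the Esrrb array, and its second, dimmer probe set gave -0.15. Fetub, a protease inhibitor, was at 8.84 and 7.14, Pla2g7, which degrades platelet-activating factor, at 9.81 and 8.36, and Itga8, an integrin subunit, at 8.31 and 7.04. The second probe set of Itga8 gave 0.29. Tmcc3, a membrane protein of the endoplasmic reticulum, was at 7.90 and 6.19, though its 5 probe sets ran between 0.00 and 1.71. The aldo-keto reductase Akr1b8 (1.48), Trim12c (1.32), Fst (1.23) and the serine protease Htra1 (1.22) were also among the 15. For Akr1b8 and Htra1 the Esrrb array was higher than the array labelled 2i, and the vector array was the lowest of the 4.

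The 15 genes with the lowest difference were led by transport proteins. Slc23a1, a vitamin C transporter, was at 5.88 on the array labelled 2i, 6.65 with Nanog, 4.65 with Esrrb and 7.72 on the vector array. The vector array was the highest of the 4 and the Esrrb array the lowest, and the difference of -1.83 was -0.43 in the second probe set. Aqp3, a water and glycerol channel, was at 8.82 on the array labelled 2i, 10.41 with Nanog, 10.15 with Esrrb and 10.49 on the vector array. Here the array labelled 2i stood alone below the other 3, and of 4 probe sets the lowest gave -1.98 and the highest 0.14. Stk26, a kinase of the germinal center kinase family, was likewise apart, at 7.46, 8.65, 8.70 and 8.83, with both probe sets lower (-1.37 and -1.65). Ina, a neuronal intermediate filament protein, was at 8.41, 8.82, 8.40 and 9.66, and all 3 of its probe sets were lower, the highest at -1.02. The transcription factor genes among the 15 were Foxp1 at 9.22 on the array labelled 2i and 10.24 on the vector array, Dmrt1 at 9.19 and 10.22, Runx1t1 at 6.27 and 7.30 and Tal1 at 6.33 and 7.36. For Foxp1 the other 3 arrays lay between 9.22 and 9.32, and the vector array alone was higher. The others were the potassium channel Kcnk1 (-1.20), the fatty acid elongase Elovl4 (-1.14), the protein kinase C gene Prkcb (-1.10), the ubiquitin ligase Rnf144a (-1.03), the lipid enzyme Cds1 (-1.02), the translation factor Cpeb1 (-1.02) and 4930447C04Rik (-1.005). The second probe set gave -1.07 for Elovl4, -1.04 for Foxp1, -0.78 for 4930447C04Rik, -0.76 for Prkcb and -0.74 for Kcnk1. It gave only -0.46 for Cds1, -0.43 for Runx1t1 and -0.11 for Rnf144a.

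**Figure D5:**
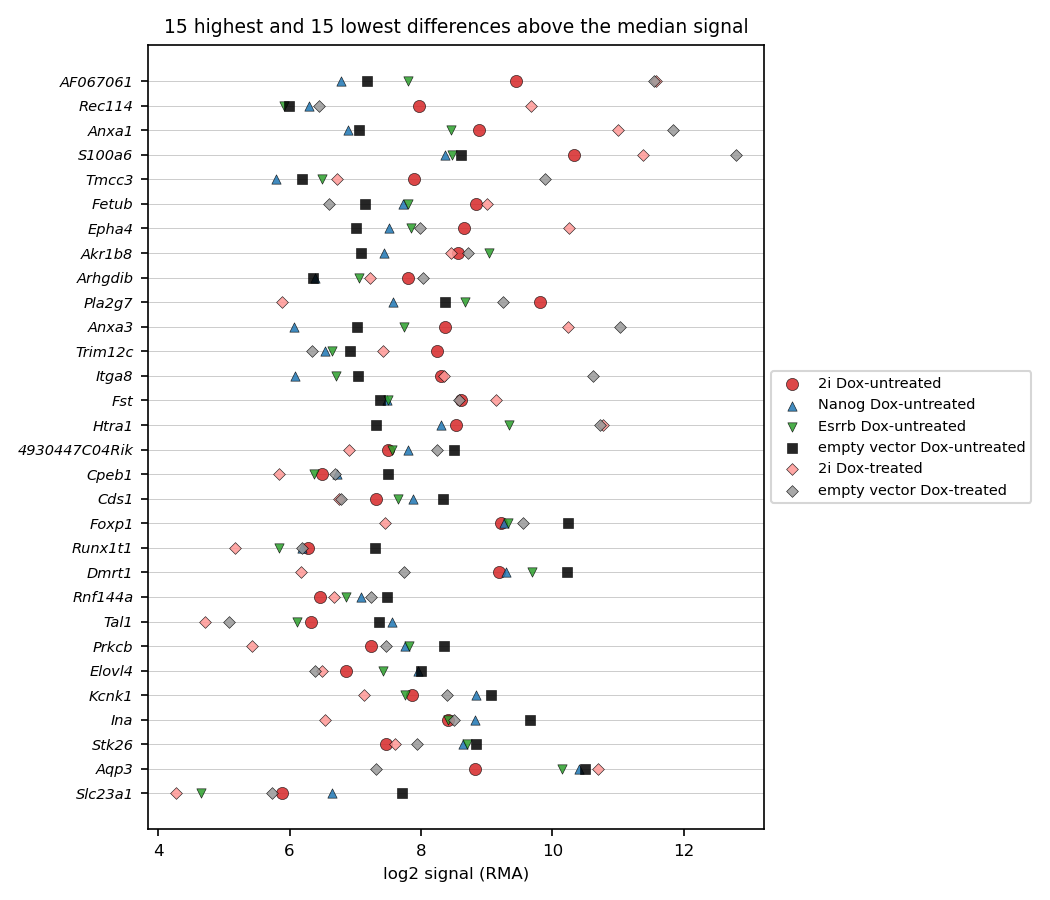
Log2 signal (horizontal) of the 15 genes with the highest and the 15 with the lowest difference, 2i minus empty vector on Dox-untreated arrays, among genes above the median signal (rows, highest difference at the top). Red circles are the array labelled 2i, blue and green triangles the arrays with Nanog and Esrrb, black squares the vector array and diamonds the Dox-treated arrays. For Aqp3 the red circle stands alone at the left of the Dox-untreated points, at 8.82, and for Foxp1 the black square stands alone at the right, at 10.24.

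Below the median signal, some differences were larger, in genes named after their values were seen. Crxos, a homeobox gene that lies antisense to Crx, was at 7.06 on the array labelled 2i, 4.83 with Nanog, 6.89 with Esrrb and 4.43 on the vector array, a difference of 2.63 and the highest of all genes. With Dox it was at 10.13 in 2i and 3.43 with the vector. Its second probe set gave 0.54. Mal2, a membrane trafficking protein, was at 3.29, 5.53, 4.07 and 5.61, the lowest difference of all genes (-2.32), and Prkd1, protein kinase D1, was at 3.46, 5.92, 5.73 and 5.66, with both probe sets lower (-2.20 and -1.31).

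Of the other lists, trophoblast markers had the largest share past 1.5-fold in the higher direction. Of 26 trophoblast markers, 6 were over 1.5-fold higher (23.1%, beside 2.52% of all genes) and 1 lower, though the median was -0.01. Nanog minus vector, which shares the vector array, had 5 higher (19.2%, beside 2.26% of all genes) and 2 lower. Esrrb minus vector, which shares it too, had 4 higher (15.4%, beside 4.59%) and 1 lower. Against the mean of the other 3 Dox-untreated arrays, 4 were higher (15.4%, beside 1.68%) and 1 lower, with a median of -0.08. Krt18 and Krt8, keratins of simple epithelia, were at 8.54 and 9.02 on the array labelled 2i and at 7.48 and 8.40 on the vector array, while Krt18 was at 8.27 and Krt8 at 9.34 on the Nanog array. Plet1, a surface protein of trophoblast progenitors, was at 7.61 and 6.84, with the array labelled 2i the highest of the 4. Cdx2 and Hand1 were dim, at 4.90 and 4.28 (Cdx2) and at 5.50 and 5.87 (Hand1). Single members of other lists also passed 2-fold, where 0.517% of all genes were higher and 0.242% lower. Higher were 1 of 39 cell cycle genes, 1 of 53 Polycomb target developmental regulators and 1 of 16 fibroblast markers. So were 1 of 27 interferon-stimulated and 1 of 30 imprinted genes, while 1 of 27 germline genes was lower. These are values of single genes and not a result about their lists. Cdkn2a, which encodes the cell cycle inhibitor p16 and the p53 activator p19Arf, was at 7.22 on the array labelled 2i, 6.57 with Nanog, 5.74 with Esrrb and 5.60 on the vector array. Meis2, a homeobox gene of development, was at 6.62 and 5.09, and its second probe set gave 1.23. Pdgfrb, a receptor of mesenchymal cells, was at 5.73 and 4.58, but its second probe set gave -0.02. Ifitm3, an interferon-induced membrane protein, was at 9.81 and 8.73, and Peg10, an imprinted gene of the placenta, at 5.59 and 4.42. Lower were Sycp2, a component of the synaptonemal complex, at 5.02 and 6.26, and, short of 2-fold, the BMP target Id2 at 8.70 and 9.54, for which the Nanog and Esrrb arrays were also below the vector array (8.50 and 7.40). No member of the lists for Myc and ribosome biogenesis, LIF and Stat3 targets, the integrated stress response, heat shock, sterol synthesis, apoptosis or housekeeping passed 1.5-fold.

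With 1 array a side, either array can set a difference, so the other 2 Dox-untreated arrays were placed beside them. Of the 94 genes over 2-fold higher, the array labelled 2i was the highest of the 4 for 71 and the vector array the lowest for 54, with both true for 33. Of the 44 lower genes, the array labelled 2i was the lowest for 33 and the vector array the highest for 35, with both true for 25. Among the 35 higher and 15 lower genes above the median signal, the array labelled 2i was the extreme for 26 and 9, and the vector array for 17 and 14. These genes were chosen by the same 2 arrays, which favours either as the extreme, so the counts are a description. Over all genes the array labelled 2i was the highest for 23.4% and the lowest for 26.8%, and the vector array the highest for 22.1% and the lowest for 27.7%. A gene just inside the limit was D1Pas1, a germ cell helicase, at 1.001, and just outside it was Tcstv3 at 0.998. Among lower genes 4930447C04Rik, at -1.005, was just inside and Gstt2, a glutathione transferase, at -0.995 just outside.

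Probe sets of the same gene give a second reading of the same 2 RNA samples. Over 4400 genes with 2 probe sets above the median signal, both differences had the same direction in 68.2%, and their Pearson correlation across genes was 0.61. Of the 21 such genes over 2-fold in either direction, all 21 had the same direction in the second probe set and 10 were over 2-fold in it too. At 1.5-fold, 122 of 124 had the same direction and 71 passed again. Both probe sets share the arrays and the RNA, so this concerns the measurement and not the culture.

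On the Dox-treated arrays, which share no array with the Dox-untreated pair, many of the same genes differed in the same direction. Of the 94 higher genes, 68 were also higher there (72.3%, beside 57.2% of all genes) and 41 were over 2-fold higher, while 11 were over 2-fold lower, beside 3.14% and 2.58% of all genes. Of the 44 lower genes, 38 were also lower (86.4%, beside 42.7% of all genes), 19 of them over 2-fold, and 2 were over 2-fold higher. Rec114, Epha4 and Fetub were examples, with differences of 3.23, 2.26 and 2.41 on the Dox-treated arrays, as were Prkcb at -2.04 and Foxp1 at -2.10. The Pearson correlation of both differences across all 18194 genes was 0.25, and 0.28 over the 9097 genes above the median signal. The genes are not independent and share the probe sets, the labels of the cells and the joint normalization.

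The differences were also set beside the Dox response in cells with forced Nanog or Esrrb, which involves 4 other arrays. Of the 94 higher genes, 64 were higher after Dox in both responses (68.1%, beside 33.6% of all genes), and of the 44 lower genes 34 were lower in both (77.3%, beside 35.2%). AF067061, for example, was at 9.75 with Dox and 6.78 without in Nanog cells, and at 12.05 with Dox and 7.80 without in Esrrb cells. The 20 measured 2-cell genes had median responses of 0.28 in Nanog cells and 1.42 in Esrrb cells. The p53 target genes had medians of 0.30 and 0.42, opposite in sign to their median on the array labelled 2i. Across all genes the Pearson correlation of the difference with the response was 0.21 for Nanog and 0.23 for Esrrb, as a description. Among the Dox-untreated arrays, Gnl3 was at 13.54 on the array labelled 2i, 13.68 with Nanog, 13.61 with Esrrb and 13.47 on the vector array. The part of NS in these differences and responses was not tested.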

How the data were processed

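RNA of the 8 conditions used here was measured on a whole-genome Affymetrix mouse expression array, 1 array each. The paper also describes array data of cells with constitutively active Stat3, which are not among these 8. The authors deposited log2 values made with RMA in the affy package, which subtracts background, quantile-normalizes all arrays together and gives 1 summary per probe set. No version is given in the sources used here. The log base is read from the values, which run between 1.82 and 14.6 with array medians between 5.31 and 5.36, and all value columns were matched to samples. Quantile normalization hides a shift common to all genes. Of 45101 probe sets, 34958 have 1 gene symbol, 932 several and 9211 are unnamed here, and 34754 matched RefSeq by Entrez ID with 0 symbols changed. Genes were not named from probe sets with several symbols. For 18194 genes the probe set brightest on average across all 8 arrays was used, and 9012 genes have 2 or more.

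Differences are 2i minus empty vector, over 2-fold means a log2 difference above 1 or below -1, and above the median signal means a mean of both arrays above 6.65 (9097 genes). With 1 array a side no test was made, and precision is limited by this number. The members and the 32 lists were chosen with earlier results of these data known. Named by rule were the 15 highest and 15 lowest differences above the median signal, all members of the MEK, Wnt, 2-cell and p53 lists, up to 4 of every other list with the largest difference, Gnl3 and the cell type markers. Not all of these are printed, and genes outside the rule were named after their values were seen: the pluripotency, methylation and primed genes given with smaller differences, and Crxos, Mal2, Prkd1, Hmga2, Rnf128, D1Pas1 and Gstt2. Promoters came from RefSeq (GRCm38.p6). The steps were checked on data with known answers and ran in Python 3.11.15 with numpy 2.4.6, pandas 2.3.3 and matplotlib 3.10.9. Alternatives were other probe set rules, a filter on dim genes, other normalization, other fold limits and, chosen after seeing the data, the mean of the other 3 Dox-untreated arrays in place of the vector array.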

Additional observations from a re-analysis of the deposited data

Results flagged for a closer look

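For 8 genes above the median signal, the difference between 2i and the empty vector was over 2-fold on both pairs of arrays but in opposite directions. Of the 35 higher genes, 7 were over 2-fold lower with Dox (beside 2.79% of all genes above the median signal) and 13 over 2-fold higher (beside 3.25%). Of the 15 lower genes, 1 was over 2-fold higher with Dox and 8 over 2-fold lower, beside the same shares. Each pair has 1 array a side, so the difference between the pairs was not tested. Aqp3, a water channel, had a log2 difference of -1.67 without Dox and 3.38 with Dox. The other 7 were higher on the Dox-untreated array labelled 2i and lower on the Dox-treated 2i array. Pla2g7 differed by 1.45 without and by -3.36 with Dox, and Tmcc3 by 1.71 and -3.17. Itga8 gave 1.26 and -2.26, and Krt18, a keratin of simple epithelia, gave 1.07 and -1.67. S100a6 gave 1.72 and -1.41, Rnf128, a ubiquitin ligase, 1.03 and -1.19, and Hmga2, a chromatin protein of embryonic cells, 1.06 and -1.13.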

How the results depend on the processing

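Of the genes over 2-fold, 35 higher and 15 lower were counted among genes above the median signal, and averaging the probe sets of each gene left 22 lower. A limit of 1.5-fold gave 459 higher and 333 lower, 3-fold gave 18 and 7, and each probe set on its own 146 and 73 probe sets. Against the mean of the other 3 Dox-untreated arrays, an alternative chosen after seeing the data, 64 were higher and 43 lower, and 47 of the 94 and 15 of the 44 were the same genes. That alternative keeps the array labelled 2i, and the vector array is 1 of the 3, so part of the overlap is built in. The 2-cell median of 0.66 was 0.54 with the mean of probe sets, 0.41 without probe sets ending in _x_at or _s_at and 0.40 against the mean of the other 3 arrays. The Wnt target median was 0.19 above the median signal, and the naive gene median 0.011 against the mean of the other 3 arrays. The agreement of probe sets fell to a correlation of 0.41 with no filter on dim probe sets. Anxa1 reversed to -0.15 in its second probe set. The medians of the 5 main lists kept their sign in 29 of 29 alternatives, and those of 27 other lists in 143 of 160. The filter on dim genes gave no value for the 2-cell list, so its median was not checked that way. The median signal of that list was 4.31 on the array labelled 2i and 3.78 on the vector array. The array medians differed by -0.014 (2i minus vector), an offset that centring removed. The cause of these changes was not tested. No paired analysis was possible because each condition has 1 array.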
